A study of Rattus norvegicus with 2 samples.

Results

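Genes of the smooth muscle contractile apparatus and targets of serum response factor (SRF) were followed in cultured astrocytes, the glia that support neurons and border blood vessels, with and without expression of 5ppase. The set is a list of 40 named genes. Of these, 36 had a probe set assigned to that gene alone, out of 14218 genes on the array with such a probe set. The 5ppase sample came from hippocampal astrocytes of embryonic day 18 Sprague-Dawley rats, with the genotype given as normal, that expressed the 5ppase-IRES2-RFP construct (the transfection entry of the labels reads 55ppase-IRES-RFP). The control sample came from the same kind of culture carrying the IRES2-RFP vector alone, so both express the red fluorescent protein. By the series' design text the control stands for active calcium signalling and 5ppase for its loss. The labels name no promoter, no source gene for the phosphatase, no share of cells that took up the construct and no number of cultures or animals behind each sample.

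Smooth muscle contracts when calcium bound to calmodulin activates myosin light chain kinase, which phosphorylates the myosin regulatory light chain and lets myosin pull on actin filaments lined with tropomyosin, caldesmon and calponin. Many genes of this machinery carry a CArG box, the DNA element bound by SRF. SRF works with alternative cofactors. Myocardin and the related MRTF proteins drive contractile and cytoskeletal genes, whereas Elk-family ternary complex factors drive immediate early genes. The MRTF proteins are held back by monomeric actin. Several of these cytoskeletal genes are also active outside muscle, in fibroblasts and cultured glia.

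Total RNA was hybridised to 1 Affymetrix rat array per group, and each value is a single-colour MAS5 signal, an intensity on a linear scale. Signals over all 31099 probe sets had a median of 109 on the 5ppase array and 107 on the control array. There were no replicates, so no p-value was computed, each ratio describes these 2 arrays, and the number of arrays limits the precision. In bulk RNA fewer cells of a type and less RNA per cell cannot be told apart. Each gene was read from the brightest of its probe sets (by mean over both arrays) and counted as measured where that mean reached a floor of 62.0, the 40th percentile of both arrays pooled. Lower signals were raised to the floor before the log2 ratio of 5ppase over control was taken. The log2 ratios of 2 measured probe sets of a gene differed with a standard deviation of 0.47 (2910 genes). Where both probe sets had a mean signal of 5000 or more it was 0.17 (57 genes). Divided by the square root of 2, to stand for a single probe set, these give a spread of 0.33 and 0.12. That spread comes from probe sets on the same 2 arrays. It covers differences between probe sets, but not noise shared by a whole array or the difference between cultures.

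The contractile and SRF target genes were mostly higher on the 5ppase array. All 36 members with a probe set of their own were measured, and all 36 lay above the floor on both arrays. Of these, 28 had a log2 ratio above 0, beside 48.6% of the 10255 measured genes, and 8 had a ratio below 0. Their median log2 ratio was 0.22, beside -0.01 over all measured genes. At least 1.5-fold higher were 7 members (Myocd, Myh11, Myl9, Acta1, Lmod1, Tpm2 and Actg2), beside 7.48% of all measured genes, and 0 were at least 1.5-fold lower, beside 6.89%. At least 2-fold higher were Myocd and Myh11, beside 2.14% of all genes, and 0 were at least 2-fold lower, beside 1.9%. The other 4 members (Actc1, Cfl1, Myl6 and Tmsb10) were represented only by probe sets listed for several genes and have no value here. Within the set, 15 genes were also counted as a smooth muscle subset (Acta2, Actg2, Myh11, Myl9, Mylk, Tpm1, Tpm2, Cnn1, Cald1, Tagln, Smtn, Lmod1, Synpo2, Csrp1 and Flna). Of these, 12 were higher and 3 lower, 5 were at least 1.5-fold higher, and the median log2 ratio was 0.48. The subset was chosen with earlier results of these data known. It leaves out Csrp2, a smooth muscle LIM protein with a log2 ratio of -0.55.

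**Figure D1:**
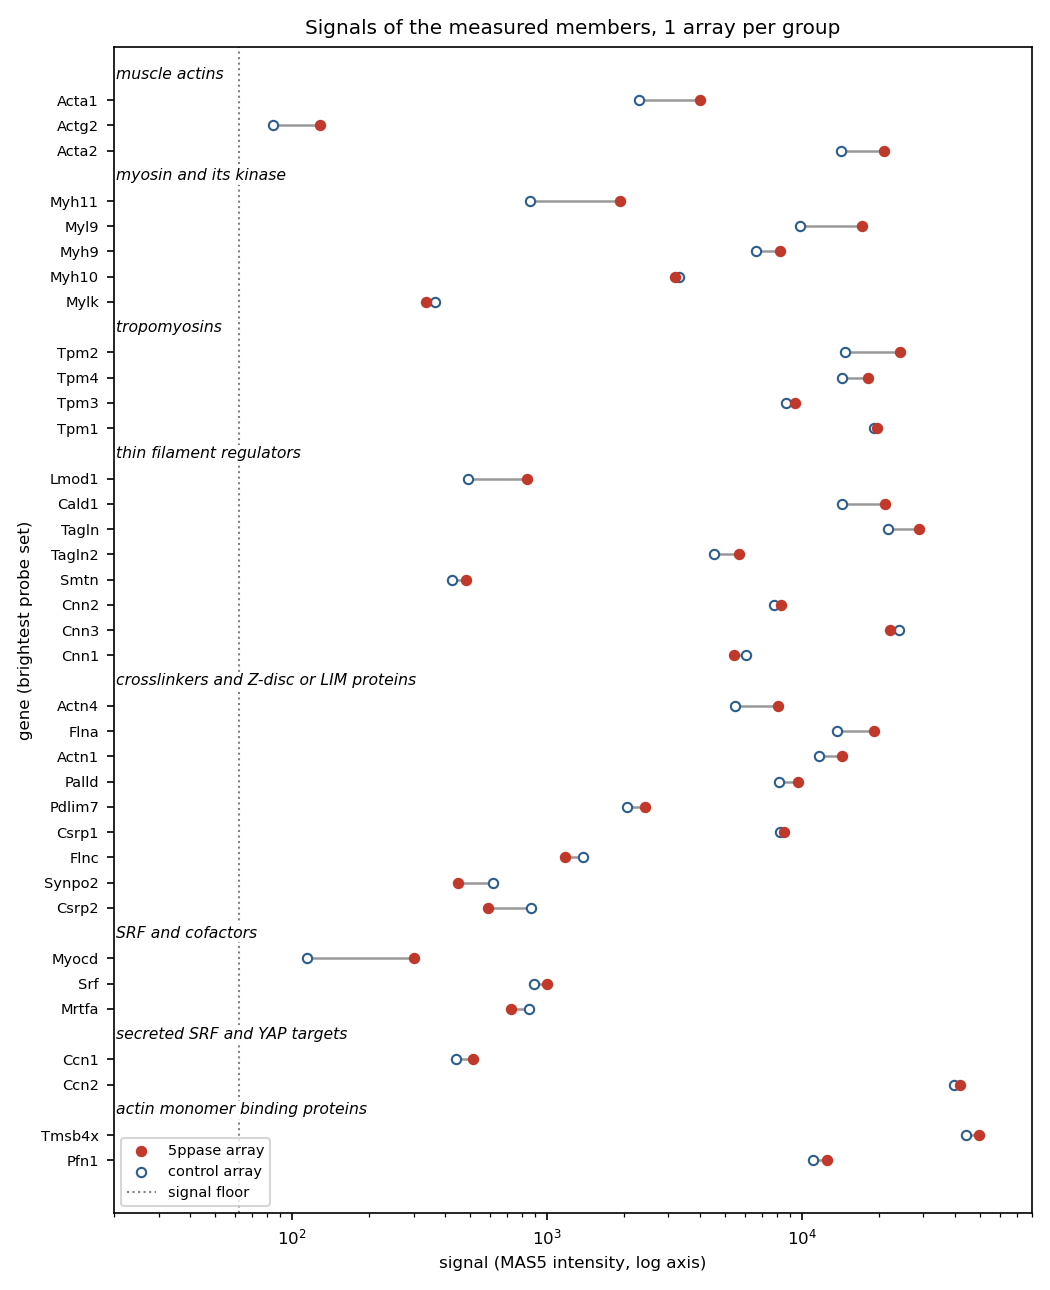
Signal of each measured member on the 5ppase array (filled points) and the control array (open points) at its brightest probe set, on a log axis, grouped by role with the highest ratio first in each group. The dotted line is the signal floor of 62.0, and 28 of the 36 filled points lie to the right of their open partner.

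Bright genes in general leaned towards the 5ppase array, and 21 of the members had a mean signal of 5000 or more. Of these 21, 19 were higher in 5ppase, beside 63.2% of all 687 genes of that brightness. Only Cnn1 and Cnn3 among them were lower. The median log2 ratio of the 21 was 0.30, beside 0.05 for all 687 genes. At least 1.5-fold higher were Myl9 and Tpm2, beside 2.77% of the bright genes. Among the 15 dimmer members 9 lay above 0 and 6 below, and 5 were at least 1.5-fold higher. Among measured genes of any brightness 48.6% lay above 0 and 7.48% were at least 1.5-fold higher. No share was taken for dimmer genes alone. The median of the 15 members was 0.18, and they held the extremes in both directions, from -0.55 for Csrp2 to 1.40 for Myocd. This cut on brightness was chosen after the values were seen.

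**Figure D2:**
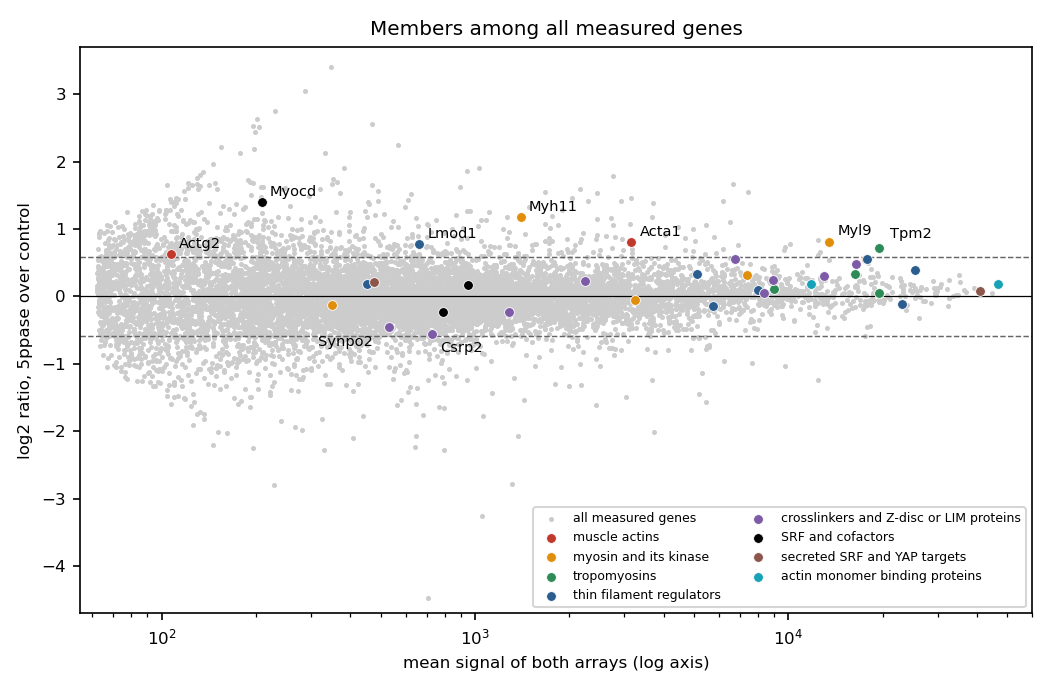
Log2 ratio of 5ppase over control (vertical) against the mean signal of both arrays on a log axis (horizontal) for all 10255 measured genes (grey) and the 36 members (coloured by role). Dashed lines mark 1.5-fold. The 7 labelled members above the upper line are those at least 1.5-fold higher in 5ppase, and Csrp2 and Synpo2 are the lowest members.

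Among the muscle actins, which form the thin filament, all 3 measured genes were higher in 5ppase, beside 48.6% of all measured genes. Their median log2 ratio was 0.62, and they stayed higher under every scaling tried. Acta2, the alpha-actin of vascular smooth muscle, gave a signal of 21069.6 on the 5ppase array and 14268 on the control array, 1.48-fold higher (log2 ratio 0.56). Acta1, the skeletal muscle alpha-actin, gave 4006 on the 5ppase array and 2295 on the control array, 1.75-fold higher (0.80). Actg2, the gamma-actin of enteric smooth muscle, was dim, with 129 on the 5ppase array and 84.0 on the control array, 1.54-fold higher (0.62), and it was no longer measured with the floor at the 60th percentile. Each of these genes had 1 probe set of its own, so no second reading was at hand. Another 5 probe sets are listed for Acta2 and Actc1 together and were not used.

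The upstream stretches of Acta2 and Acta1 are shown because both actins are standard examples of muscle genes driven through CArG boxes. They are the 250 bases before the RefSeq transcript start (GRCr8), written 5′ to 3′ on the gene's strand, with CArG boxes in capitals. Capitals also mark boxes with 1 G or C inside the run of A and T.
Acta2, chr1:241172504-241172753, minus strand: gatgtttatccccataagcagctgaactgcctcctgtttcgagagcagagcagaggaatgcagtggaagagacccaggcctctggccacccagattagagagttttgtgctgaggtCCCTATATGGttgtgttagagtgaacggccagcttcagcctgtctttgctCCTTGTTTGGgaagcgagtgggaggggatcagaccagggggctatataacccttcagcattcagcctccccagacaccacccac
Acta1, chr19:68784195-68784444, minus strand: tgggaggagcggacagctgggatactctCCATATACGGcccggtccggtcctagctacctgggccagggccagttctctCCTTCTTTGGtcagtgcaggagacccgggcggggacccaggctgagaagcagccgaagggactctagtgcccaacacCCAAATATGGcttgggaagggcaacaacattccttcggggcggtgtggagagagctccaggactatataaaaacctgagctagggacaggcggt
Acta2 held 2 boxes of the second kind, CCCTATATGG from position -134 and CCTTGTTTGG from position -84, counted from the transcript start. Acta1 held 1 exact CArG box, CCAAATATGG, from position -94, and 2 of the second kind further upstream.

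Myh11 and Myl9 had the highest ratios among the myosin genes. Myh11, the smooth muscle myosin heavy chain and a late marker of that lineage, gave 1937 on the 5ppase array and 857 on the control array, 2.26-fold higher (log2 ratio 1.18, position 126 from the top of the 10255 measured genes). At a second probe set both signals were below the floor, with 39.1 in 5ppase and 41.8 in control. Myl9, the regulatory light chain that the kinase phosphorylates, gave 17259 in 5ppase and 9813 in control, 1.76-fold higher (0.81). The nonmuscle heavy chain Myh9 gave 8189 in 5ppase and 6585 in control (0.31), while the other nonmuscle chain Myh10 gave 3184 in 5ppase and 3306 in control (-0.05). Mylk, the calmodulin-dependent kinase of the light chain, gave 334 in 5ppase and 364 in control (-0.12), and both signals of its second probe set fell below the floor. Of the 5 measured genes 3 thus lay above 0, beside 48.6% of all measured genes, and 2 below (median 0.31).

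Tropomyosins stabilise the actin filament and set its access to myosin. Tpm2, the beta-tropomyosin, gave 24261 in 5ppase and 14769.9 in control, 1.64-fold higher (log2 ratio 0.72). Its dimmer probe set pointed the same way, with 191 in 5ppase and 93.8 in control (1.03). Tpm4 gave 18185 in 5ppase and 14424 in control (0.33), with 0.21 at its second probe set. Tpm3 gave 9372 in 5ppase and 8664 in control (0.11), and all 9 of its other measured probe sets were also positive, from 0.02 to 0.76 (1 of them, at 0.62, with its control signal under the floor). Tpm1, the alpha-tropomyosin, gave 19788 in 5ppase and 19184 in control (0.04), which turned to -0.02 under quantile normalization and -0.03 after removal of a loess trend. Of the other measured probe sets of Tpm1, 1 was at 0.00 and 4 were negative, from -0.11 to -0.79, and tropomyosin probe sets can read different splice forms of the gene.

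The genes that decorate and regulate the thin filament had a median log2 ratio of 0.25, with 6 of 8 above 0. Among all measured genes 48.6% lay above 0, and among genes with a mean signal of 5000 or more 63.2%. Lmod1, the leiomodin that nucleates actin filaments in smooth muscle, gave 839 in 5ppase and 489.5 in control, 1.71-fold higher (log2 ratio 0.78). Cald1, caldesmon, which inhibits myosin on the thin filament, gave 21157 in 5ppase and 14439 in control, 1.47-fold higher (0.55), and 0.31 at its second probe set. Tagln, transgelin or SM22, an early smooth muscle marker, gave 28754 in 5ppase and 21879 in control, 1.31-fold higher (0.39), and its relative Tagln2 gave 0.33. Smtn, smoothelin, gave 481 in 5ppase and 426 in control (0.18), with a larger ratio of 0.73 at a dim probe set (142 in 5ppase and 85.9 in control).

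The calponins did not share this difference. Cnn1, the smooth muscle calponin and another CArG-driven marker, gave 5447 in 5ppase and 6022 in control (log2 ratio -0.14). Cnn3, the acidic calponin, gave 22156 in 5ppase and 23984 in control (-0.11), and Cnn2 gave 8313 in 5ppase and 7750 in control (0.10). The ratios of Cnn1 and Cnn3 were negative under every scaling tried, yet all 3 calponins lay within 1.5-fold.

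Among the crosslinkers and the LIM and Z-disc proteins, 6 of 9 were higher, with a median of 0.23 and 0 of them 1.5-fold apart. That count stands beside 48.6% of all measured genes and 63.2% of genes with a mean signal of 5000 or more. Actn4, a nonmuscle alpha-actinin, gave 8053 in 5ppase and 5451 in control, 1.48-fold higher (log2 ratio 0.56). Flna, filamin A, gave 19187 in 5ppase and 13788 in control, 1.39-fold higher (0.48), and Actn1 gave 0.30 at both of its probe sets. Palld (0.24), the LIM protein Pdlim7 (0.23, but -0.02 at its second probe set) and Csrp1 (0.05, turning to -0.0004 after removal of a loess trend) had smaller ratios. Csrp2, a smooth muscle LIM protein, gave 590 in 5ppase and 864 in control (-0.55), the lowest ratio of the 36. Synpo2, a Z-disc protein also called myopodin, gave 448 in 5ppase and 614 in control (-0.46). Its other measured probe sets gave 208 in 5ppase and 317 in control (-0.61) and, at the dimmest, 99.5 in 5ppase and 92.3 in control (0.11). Flnc, the muscle filamin, gave 1177 in 5ppase and 1384 in control (-0.23), with -0.02 at its second probe set.

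Further probe sets were compared with the brightest. For 10 members with more than 1 measured probe set, 23 further readings were available, of which 17 had the sign of the brightest one and 6 did not. More of the 17 came from Tpm3 than from all other members together, and most of the 6 came from Tpm1. Readings of 1 gene are thus counted many times. In 21 of the 23 the difference from the brightest was under 1.5-fold, with a median of 0.16 on the log2 scale. Of the 7 members at least 1.5-fold higher, Tpm2 alone had a second measured probe set.

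**Figure D3:**
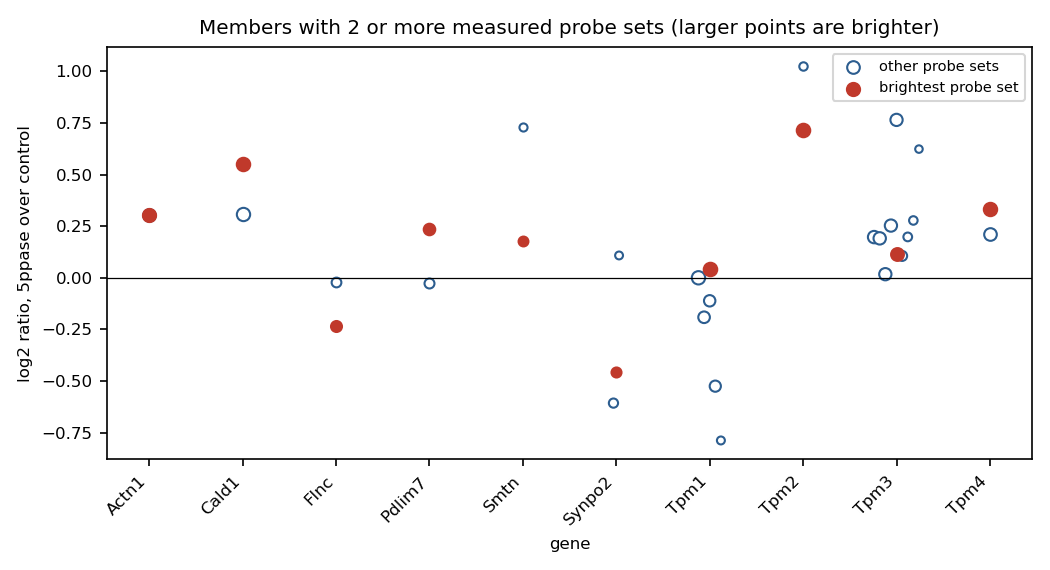
Log2 ratio of 5ppase over control (vertical) for every measured probe set of the 10 members with 2 or more (horizontal), with filled points for the brightest and open points for the others. Point size grows with signal. The probe sets of Tpm2, Cald1, Tpm3 and Tpm4 are all positive, those of Tpm1 and Synpo2 lie on both sides of 0, and the pair of Actn1 overlap at 0.30.

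Among the regulators themselves Myocd had the highest ratio. Myocd, myocardin, the cofactor that drives the smooth muscle and cardiac programme, gave 302 on the 5ppase array and 115 on the control array, 2.63-fold higher (log2 ratio 1.40, position 71 from the top of all measured genes). This was the largest ratio of the 36 members, it was between 1.35 and 1.41 under the 9 alternatives that kept the gene, and no second probe set was at hand. Srf gave 1003 in 5ppase and 891 in control (0.17). The second brightest Srf probe set was above the floor in 5ppase only, with 96.5 against 9.2 in control, a mean that did not reach the floor. Mrtfa, a broadly expressed MRTF cofactor, gave 723 in 5ppase and 851 in control (-0.23). With 3 genes the group has no stable median, 0.17 here and -0.03 without Myocd, as with the floor or the mean signal at the 60th percentile.

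Srf and Cnn2 are shown beside these values because each holds exact CArG boxes close to the transcript start, and SRF is known to act on its own gene. The same layout applies, with CArG boxes in capitals.
Srf, chr9:21923826-21924075, plus strand: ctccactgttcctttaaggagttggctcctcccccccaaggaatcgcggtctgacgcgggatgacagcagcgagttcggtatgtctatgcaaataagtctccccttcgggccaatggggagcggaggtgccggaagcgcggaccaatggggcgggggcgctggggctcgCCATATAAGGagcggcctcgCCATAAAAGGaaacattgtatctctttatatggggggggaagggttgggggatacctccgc
Cnn2, chr7:10370313-10370562, minus strand: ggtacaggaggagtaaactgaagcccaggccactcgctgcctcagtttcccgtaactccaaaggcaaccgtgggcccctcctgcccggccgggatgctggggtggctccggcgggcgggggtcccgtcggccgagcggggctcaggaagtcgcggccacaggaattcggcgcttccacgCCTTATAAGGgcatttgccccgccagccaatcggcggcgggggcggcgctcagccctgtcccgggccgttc
Srf carried boxes from positions -81 (CCATATAAGG) and -61 (CCATAAAAGG), and Cnn2 carried 1 from position -71 (CCTTATAAGG). The log2 ratios were 0.17 for Srf and 0.10 for Cnn2, and a relation between boxes and ratios was not tested. Across windows of 300 bases, from 250 before to 50 after the start, 4 of the 34 members with a window held an exact CArG box (Acta1, Actc1, Cnn2 and Srf), against 485 of all 27457 genes (1.77%). With 1 G or C in the core there were also 4 members (Acta1, Acta2, Actc1 and Tpm3), against 8.68% of all genes. The CArG pattern reads the same on both strands. The members were listed as SRF targets, so these counts are not independent of the choice. The table had no entry for Actn4, Myh11, Myl9, Tagln, Lmod1 and Myocd.

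The secreted matrix proteins Ccn1 and Ccn2, targets of both SRF with MRTF and the YAP coactivator with its TEAD partners, differed little. Ccn2, connective tissue growth factor, gave 41937 in 5ppase and 39705 in control (log2 ratio 0.08, turning to -0.01 under quantile normalization and -0.03 after removal of a loess trend). Ccn1 gave 513 in 5ppase and 442 in control (0.22). The Ccn2 promoter is shown for its repeats of the TEAD motif CATTCC, in capitals, which lie on the opposite strand and so read GGAATG.
Ccn2, chr1:22624615-22624864, minus strand: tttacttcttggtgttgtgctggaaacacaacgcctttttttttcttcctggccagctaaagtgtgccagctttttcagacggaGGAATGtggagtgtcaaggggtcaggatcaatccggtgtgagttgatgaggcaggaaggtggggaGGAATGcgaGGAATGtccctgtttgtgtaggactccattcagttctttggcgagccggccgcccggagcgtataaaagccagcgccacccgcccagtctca
They started at positions -166, -101 and -92. Searched on both strands, CATTCC occurred in 13 of the 34 members with a window, against 15.03% of all genes, and in 0 cases overlapped a CArG match in the members. Beside Ccn1 and Ccn2 the 13 were Acta1, Acta2, Cald1, Flna, Flnc, Myh10, Mylk, Palld, Pfn1, Tagln2 and Tpm1, whose ratios ran from -0.23 to 0.80.

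The monomer binding proteins, which buffer and recycle unpolymerised actin, were near each other. Pfn1, profilin, gave 12590.4 in 5ppase and 11112 in control (log2 ratio 0.18). Tmsb4x, the monomer-sequestering thymosin beta-4, gave 49734 in 5ppase and 43892 in control (0.18). Its probe set was the brightest of all probe sets on both arrays, so quantile normalization set its ratio to 0.

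Other genes tied to SRF were examined as lists. Of 17 measured further targets of SRF and MRTF, 14 were higher, 4 of them at least 1.5-fold, and 0 were that much lower, with a median log2 ratio of 0.25. Over all measured genes 48.6% were higher, 7.48% at least 1.5-fold higher and 6.89% that much lower, and of genes with a mean signal of 5000 or more 63.2% were higher. Filip1l, an actin-associated protein, gave 2690 in 5ppase and 1106 in control (1.28). Lima1, which bundles actin filaments, gave 3132 in 5ppase and 1742 in control (0.85), and the nuclear ankyrin repeat protein Ankrd1 gave 2765 in 5ppase and 1577 in control (0.81, and 0.45 at its second probe set). Vcl, vinculin, which ties actin to focal adhesions, gave 11987 in 5ppase and 7412 in control (0.69), with 0.45 and 0.24 at its other probe sets.

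Immediate early genes that SRF drives with ternary complex factors lay on the other side. Of 7 measured genes 6 were at least 1.5-fold lower in 5ppase, beside 6.89% of all measured genes, and 1 was higher. The median log2 ratio was -0.77. Fosb gave 118 in 5ppase and 326 in control (-1.46), Fos gave 4238 in 5ppase and 8260 in control (-0.96), Ier2 gave 2060 in 5ppase and 3543 in control (-0.78) and Junb gave 2027 in 5ppase and 3448 in control (-0.77). A dim second probe set of Fos went the other way, with 129 in 5ppase and 73.4 in control. Only Fos and Mcl1 have a second measured probe set. Both of these were higher in 5ppase (0.82 and 0.44), so the list median over them was positive. Scaling did not change the direction of the list, whose median lay between -0.80 and -0.76 under the 4 scalings tried. The difference between these genes and the contractile ones is a description of these arrays, with no test.

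Cofactors of SRF and their TEAD partners lay on both sides of 0. Of 14 measured genes, 8 had a ratio above 0, beside 48.6% of all measured genes, and 6 below. The median log2 ratio was 0.05. At least 1.5-fold higher was 1 gene, beside 7.48% of all measured genes, and 1 was that much lower, beside 6.89%. Klf4, a repressor of the smooth muscle programme, gave 1565 in 5ppase and 657 in control (1.25), and Tead2 gave 200 in 5ppase and 332 in control (-0.73). The ternary complex factors Elk1 (-0.18), Elk3 (-0.23) and Elk4 (-0.15) and the coactivator Wwtr1 (0.30), named after their values were seen, lay within 1.5-fold.

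**Figure D4:**
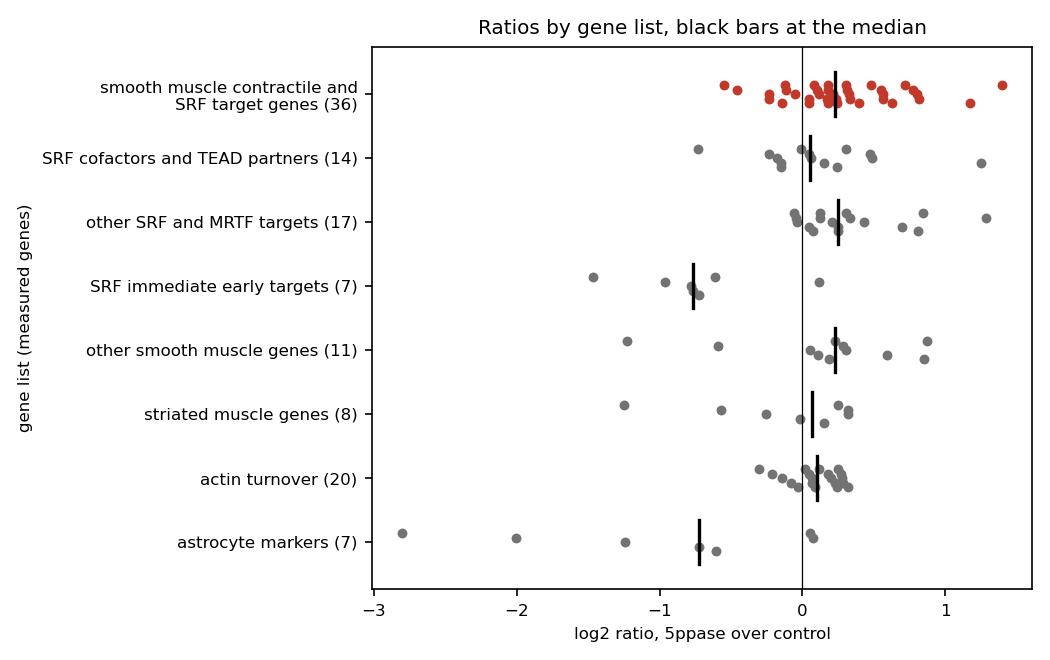
Log2 ratio of 5ppase over control (horizontal) for every measured gene of 8 lists (vertical, number measured in brackets), with black bars at the medians. The contractile and SRF target genes (red) have a median of 0.22, the SRF immediate early targets -0.77 and the astrocyte markers -0.73.

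Markers of cell types were read alongside, since cells other than astrocytes can carry smooth muscle genes, and their part in the ratios above was not tested. Of the astrocyte list 7 of 10 markers were measured, with 5 lower by at least 1.5-fold, beside 6.89% of all measured genes. The signals of the list summed to 25051 in 5ppase and 42631 in control. The 2 measured markers that were higher, named after their values were seen, were S100b and Gja1. Their log2 ratios were 0.05 for S100b and 0.07 for Gja1, with 1.04 at a dimmer Gja1 probe set. Gfap, the astrocyte intermediate filament, gave 7408 in 5ppase and 17525 in control, and the water channel Aqp4 was under the floor in 5ppase, at 25.1, against 432 in control. The other Aqp4 probe sets were under the floor on both arrays. They gave 32.6 in 5ppase and 14.3 in control, and 23.7 in 5ppase and 5.6 in control. Slc1a2, a glutamate transporter of mature astrocytes, was under the floor on both arrays, at 25.7 in 5ppase and 24.1 in control. Of the mural list, covering vascular smooth muscle and pericytes, 4 of 10 were measured, and the sums were 2191 in 5ppase and 2411 in control. Rgs5, a defining pericyte gene, was under the floor on both arrays, at 34.1 in 5ppase and 31.4 in control, and Pdgfrb, which fibroblasts share, gave 992 in 5ppase and 1097 in control (-0.15). The other Pdgfrb probe sets pointed the opposite way, with 363 in 5ppase and 221 in control (0.72) and with 182 in 5ppase and 153 in control (0.25). Other mural markers, named after their values were seen, went both ways. Cspg4 gave 629 in 5ppase and 261.5 in control (1.27), Mcam gave 326 in 5ppase and 765 in control (-1.23), Notch3 gave 52.3 in 5ppase and 92.7 in control, and desmin (Des) averaged under the floor, with 43.5 in 5ppase and 71.4 in control.

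Of the fibroblast and meningeal list 7 of 10 were measured, summing to 141775 in 5ppase and 147615 in control over the list. Of the 7, 3 were higher, beside 48.6% of all measured genes, and 4 lower. At least 1.5-fold higher was Thy1, at 6032 in 5ppase and 3311 in control (log2 ratio 0.87), beside 7.48% of all measured genes. That much lower was Pdgfra, at 644 in 5ppase and 1018 in control (-0.66), beside 6.89%. Both were named after their values were seen. Col1a1 was bright on both arrays, at 32414 in 5ppase and 32792 in control, whereas Dcn was under the floor on both, at 30.6 in 5ppase and 1.5 in control. Of the endothelial list 2 of 10 were measured and 7 had both signals under the floor. The whole list summed to 467 in 5ppase and 277 in control. The measured ones were Esam, under the floor in control, and Flt1, whose measured probe sets went opposite ways (0.78 and -0.48). The microglial sum was 2610 in 5ppase and 1301 in control, most of it from Tmem119. The oligodendrocyte sum was 1615 in 5ppase and 3599 in control, with Cldn11 under the floor in 5ppase, at 47.2, against 1371 in control. The neuronal sum was 13152 in 5ppase and 6695 in control, most of it from Stmn2. Of the 4 measured neuronal markers 2 were higher, beside 48.6% of all measured genes, and 2 lower. Beside Stmn2 and Map2 these were Tubb3 and Gad1, named after their values were seen. Tubb3 gave 290 in 5ppase and 87.9 in control (1.72), and Gad1 gave 422 in 5ppase and 998 in control (-1.24). Pecam1, Rbfox3 and Mog were under the floor on both arrays. Aif1 and Csf1r were near it, Mbp gave 70.9 in 5ppase and 48.4 in control, Map2 gave 1210.1 in 5ppase and 1737 in control, and Cdh5 was not analysed here.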

How the data were processed

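The authors deposited 1 linear intensity per probe set from single-colour arrays. Per the submitters' processing notes these come from MAS5, whose settings no source used here gives. Labelling followed the Affymetrix procedure, per the labels' protocols. Both arrays share a trimmed mean of 500.2 (2% cut at each end), which removes overall brightness differences but leaves any trend with signal. They were rescaled to it here, and 0 sample columns were left out.

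Of 31099 probe sets, 20832 carried 1 gene symbol in the platform annotation and 20764 of these matched RefSeq by gene identifier (GRCr8). Probe sets with several genes (436) or not listed (9831) were left unnamed. Taking the brightest probe set is sensitive to its position in the transcript. The main filter used the mean of both arrays, so it does not depend on which array was higher. The calculation of ratios was checked on simulated signals with known changes. With 1 array per group no test between groups was possible. Members, roles and lists were chosen with earlier results of these data known. A list of signalling genes is not reported here. All members were named, with the genes of other lists at least 1.5-fold apart (at most 4 a list, or the 2 brightest) and fixed defining markers. Alternatives covered scaling (as deposited, common median, quantile, loess with span 0.3), floors, a pseudocount of 6.4, filters and probe sets. Promoter sequences are from RefSeq (GRCr8). Python 3.11.15, numpy 2.4.6, pandas 2.3.3 and statsmodels 0.14.6 were used.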

Additional observations from a re-analysis of the deposited data

How the results depend on the processing

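Over 12 alternatives to the processing and 1 limit on signal set after seeing the data, the counts and medians of the members gave 99 further values, of which 90 stayed within 1.5 times the count or 0.1 of the median. Several alternatives could hardly move these values. The deposited arrays already shared a trimmed mean, and a lower floor could not act on members that were all above the higher one. Leaving out _x_at and _s_at probe sets changed no count or median of the members. Counts of 0 that stayed at 0 are also among the 90. With second brightest probe sets, which only 10 members have, 7 members were higher and 3 lower, 2 were at least 1.5-fold higher, 1 (Synpo2) was at least 1.5-fold lower, 1 was at least 2-fold higher, and the median of the 15 smooth muscle genes was 0.31 (0.48 as reported). With the floor or the mean signal at the 60th percentile, 1 member was at least 2-fold higher in each case, since Myocd was no longer measured. Among members with a mean signal of 5000 or more, the added limit, 2 were at least 1.5-fold higher. Quantile normalization left 25 members higher and 10 lower, beside 49.1% of all measured genes higher under that scaling. Removal of a loess trend left 25 higher and 11 lower, beside 49.9%. The members that turned negative after removal of the trend were Tpm1, Csrp1 and Ccn2. All of them are among the 19 members with a mean signal of 5000 or more that were higher as reported. Single members moved by over the probe set spread once in 401 values, for Smtn at its second probe set (0.73). Those 401 values include the same alternatives that could hardly move a member.

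List medians changed direction in 4 of 163 values. Second brightest probe sets gave -0.021 for crosslinkers and LIM proteins and 0.63 for the immediate early targets, over the few genes that have one. The SRF cofactor group gave -0.032 with the floor and with the mean signal at the 60th percentile, both without Myocd. The smallest signals have the least support, Actg2 and Myocd among them. No paired analysis was possible because each group has 1 array.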

Other observations

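Genes of actin turnover, which nucleate, cap and sever filaments, were higher on the 5ppase array in 15 of 20 measured cases, beside 48.6% of all measured genes and 63.2% of genes with a mean signal of 5000 or more, but 0 of them were 1.5-fold apart, with a median log2 ratio of 0.10 and a range from -0.30 to 0.32. The brightest were Actr2, a subunit of the Arp2/3 complex that branches filaments, at 11971 in 5ppase and 9901 in control (0.27), and the capping subunit Capzb, at 10731 in 5ppase and 10120.3 in control (0.08).

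Further smooth muscle genes were often dim, and 11 of 18 were measured, 9 of them higher, beside 48.6% of all measured genes, and 2 lower. At least 1.5-fold higher were 3, beside 7.48% of all measured genes, and 2 were that much lower, beside 6.89%. Gucy1a1, a subunit of the nitric oxide receptor guanylate cyclase, gave 419 in 5ppase and 232 in control (0.85), and the Z-disc protein Ldb3 gave 120 in 5ppase and 79.4 in control (0.59). Heyl, a Notch target of vascular muscle, was above the floor in 5ppase only, at 114, against 51.1 in control, so the ratio of 0.87 is taken against the floor. Mcam, an adhesion molecule of vascular muscle, was lower, at 326 in 5ppase and 765 in control (-1.23). Npr1, named after its values were seen, was dim and also lower, at 73.6 in 5ppase and 111 in control (-0.59). Of 26 striated muscle genes 8 were measured and 14 were under the floor on both arrays. The 8 split into 4 higher, beside 48.6% of all measured genes, and 4 lower, with a median log2 ratio of 0.07. Only 1 was at least 1.5-fold lower, beside 6.89% of all measured genes, and 0 were that much higher. It was Actn2, the sarcomeric alpha-actinin, at 73.6 in 5ppase and 175 in control (-1.25).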
